A study of Mus musculus with 28 samples.

Results

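The genes of the caveolar coat were followed across 5 mouse adipose tissue data sets in which control mice were set against mice with a knockout of Fgf13. The 9 genes were taken as a named list: the caveolins Cav1, Cav2 and Cav3, the cavins Cavin1, Cavin2 and Cavin3, the ATPase Ehd2 and the F-BAR proteins Pacsin2 and Pacsin3. They are 9 of the 55891 gene identifiers listed in the largest tables, and 8 of them (all but Cav3) were abundant enough to be tested in each depot, among 13253 to 14749 genes tested.

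Bulk RNA-seq libraries numbered 28, with 15 from control and 13 from knockout mice. The sets ieWAT (epididymal white fat, 3 control and 3 knockout libraries) and isWAT (subcutaneous white fat, 3 and 2) came from an inducible adipose deletion of Fgf13. The sets sWAT (subcutaneous white fat, 3 and 3) and BAT (brown fat, 3 and 2) came from a constitutive adipose deletion. Both the control and the knockout mice of these 4 sets were obese, after 20 weeks on high fat feeding. A further epididymal set, eWAT (3 and 3), carries the genotypes WT and Fgf13 KO, but the sources used here name neither its type of knockout nor its diet, nor the Cre driver of any set. The labels do not say which animal each library came from, so p-values measure the spread between these libraries.

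Caveolae are small flask-shaped pits of the plasma membrane that are abundant in adipocytes, endothelial cells and muscle. Caveolins oligomerise in the membrane, cavins assemble into a coat on its cytoplasmic side, EHD2 sits at the neck and restrains the pit at the surface, and PACSIN proteins bend the membrane there. In fat cells, loss of caveolin 1 or cavin 1 removes caveolae and is accompanied by small fat stores and lipodystrophy. FGF13 is a fibroblast growth factor homologous factor that is kept inside the cell, and in heart muscle cells it has been linked to the number of caveolae.

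The 5 upstream windows below from RefSeq (build GRCm38.p6) were chosen because they belong to genes that moved together in eWAT (Cav1, Cav2, Cavin1 and Ehd2) and to the coat-associated gene that did not move with them (Pacsin2). Each is the 250 bases before the first listed transcription start, 5′ to 3′ on the gene's own strand. Capitals mark matches on either strand to any of 4 motifs. The GC box, which SP family factors bind, was searched as GGGCGG. The box bound by nuclear factor Y was searched as its name, CCAAT. The box bound by the general factor TBP was searched as TATAAA. The motif of the C/EBP family, which acts in fat cell differentiation, was searched as TTNNGNAA.
Cav1, chr6:17306085-17306334, plus strand: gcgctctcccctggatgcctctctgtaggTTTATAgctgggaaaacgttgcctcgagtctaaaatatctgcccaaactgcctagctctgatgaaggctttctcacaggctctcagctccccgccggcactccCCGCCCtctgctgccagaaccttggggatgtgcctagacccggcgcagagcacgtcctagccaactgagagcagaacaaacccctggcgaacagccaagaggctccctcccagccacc
Cav2, chr6:17280935-17281184, plus strand: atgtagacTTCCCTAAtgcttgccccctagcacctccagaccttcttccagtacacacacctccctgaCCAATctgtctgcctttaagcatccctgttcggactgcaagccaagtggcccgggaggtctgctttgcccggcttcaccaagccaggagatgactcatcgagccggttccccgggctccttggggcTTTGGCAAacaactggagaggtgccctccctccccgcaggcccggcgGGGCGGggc
Cavin1, chr11:100970618-100970867, minus strand: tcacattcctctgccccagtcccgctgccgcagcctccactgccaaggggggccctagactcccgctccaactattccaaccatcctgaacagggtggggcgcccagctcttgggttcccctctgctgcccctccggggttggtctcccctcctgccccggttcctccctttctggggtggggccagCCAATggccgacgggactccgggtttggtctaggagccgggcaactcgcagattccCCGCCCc
Ehd2, chr7:15967536-15967785, minus strand: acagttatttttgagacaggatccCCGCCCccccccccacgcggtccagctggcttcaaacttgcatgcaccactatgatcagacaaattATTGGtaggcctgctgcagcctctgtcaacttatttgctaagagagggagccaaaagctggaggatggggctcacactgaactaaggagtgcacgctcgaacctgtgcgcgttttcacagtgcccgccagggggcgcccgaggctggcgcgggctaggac
Pacsin2, chr15:83464607-83464856, minus strand: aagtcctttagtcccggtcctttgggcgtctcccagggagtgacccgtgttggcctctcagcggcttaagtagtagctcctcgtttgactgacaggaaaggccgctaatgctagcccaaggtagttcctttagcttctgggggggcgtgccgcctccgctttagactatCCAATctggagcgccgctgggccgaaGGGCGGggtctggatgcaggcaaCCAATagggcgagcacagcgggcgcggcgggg

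RefSeq windows were matched for 8 of the 9 genes (13 windows in all). Cav1 and Cav2 are neighbours on chromosome 6 and lie on the same strand, with no other protein-coding gene between them. A GC box was found in the first window of 6 of the 8 genes and in 32.7% of all 32817 windows of this length. A CCAAT box was found in 6 of 8, against 33.8% of all windows. Cavin2, which also rose in eWAT, has a window that is not printed above, with 1 CCAAT box and no GC box. No window was matched for Cavin3, which rose as well. The TATA box (12.4% of windows) was matched only for Cav1, at position -221, and the C/EBP motif (36.8% of windows) only for Cav2, at positions -242 and -56 (counted from the start to the first base of the match), among these 8 first windows. The windows of Cavin1 and Pacsin2 both held a GC box and at least 1 CCAAT box, so these letters did not separate a gene that rose in eWAT from one that did not. These matches describe letters and say nothing of binding.

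Fgf13 was lower without overlap in every knockout group of ieWAT (44.3 ± 6.26 against 27.1 ± 5.61 CPM, mean ± SD, n = 3 and 3, control first), isWAT (60.3 ± 8.18 against 33.3 ± 2.83, n = 3 and 2), sWAT (109.5 ± 3.63 against 63.2 ± 20.5, n = 3 and 3) and BAT (9.07 ± 7.62 against 1.06 ± 1.15, n = 3 and 2). CPM scale the reads of each gene to the total reads of the library. Fgf13 was not called by limma in any of these 4 sets. Its limma adjusted p was 0.179 in isWAT, 0.447 in sWAT and 0.251 in BAT. Of all genes tested, 1.68% were lower without overlap in ieWAT, 19.4% in isWAT, 12.3% in sWAT and 38.1% in BAT. Fgf13 was not lower in the eWAT libraries labelled knockout (20.3 ± 7.39 against 22.6 ± 4.76 FPKM, n = 3 each, log2 difference 0.19, limma adjusted p = 0.677). FPKM scale fragments to transcript length and to the library total. The level of the targeted gene thus goes against the eWAT labels, and its groups are called by those labels throughout. The ieWAT libraries held 29857189 to 43624353 reads and the isWAT libraries 37700750 to 48812592. The sWAT libraries held 13490948 to 21241811 reads, those of BAT 14951333 to 21246286, and the depth of eWAT is unknown. Adipocyte markers were high in all sets, and Ucp1, the uncoupling protein of brown fat, averaged 5992 CPM in the BAT controls. Skeletal muscle transcripts were high in 5 of the 22 libraries with CPM values (knockout replicates 2 and 3 of sWAT; control replicates 1 and 2 and knockout replicate 2 of BAT).

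Levels were compared between genes per exon length, in the control libraries. Cav1, the principal caveolin of fat, stood between the 98.5 and 99.7 percentiles of the genes tested in each depot. Cavin1, the cavin that caveola formation requires, stood between the 96.9 and 99.6 percentiles, and Ehd2 between 92.4 and 99.2. Cav2, which oligomerises with caveolin 1, stood between 93.8 and 98.4. Cavin2 ranged from 92.5 to 98.6 and Cavin3 from 90.7 to 98.8. Pacsin2, the widely expressed PACSIN, was lower, between 83.6 and 87.2. Pacsin3, better known from muscle, was near the middle or below it, between 27.5 and 53.5. Cav3, the muscle caveolin, was below the limit of 1 CPM or FPKM used for testing in every depot.

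The order of the depots depended on scaling. In CPM, 8 of the 9 genes had their lowest control mean in BAT, but with TMM factors computed over all 22 libraries only 3 did (Cavin1, Cavin3 and Ehd2). Cavin3, a cavin that binds protein kinase C delta, had the widest range among the 8 genes tested. Its control libraries gave 206, 261 and 275 CPM in ieWAT, 427, 396 and 349 in isWAT, 339.8, 334 and 307 in sWAT, and 43.1, 17.4 and 78.9 in BAT. Its isWAT and BAT control means differed 8.40-fold in CPM and 5.22-fold with TMM, while isWAT and sWAT overlapped with TMM. For Cavin1 the order isWAT, sWAT, ieWAT, BAT held under both scalings, with no overlap between neighbours. Its control means were 1983, 1712, 1355 and 473 CPM in that order. Cav1 and Cav2 were highest in sWAT under both scalings, at 2915 ± 118 and 644 ± 21.0 CPM (SD, n = 3). For both, ieWAT and BAT overlapped in CPM. With TMM, ieWAT was the lowest for both. The tables were normalised separately and the mice differed between sets, so no test was made between depots.

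Ratios taken within a library do not depend on its scaling. In eWAT they carry the gene lengths behind the deposited FPKM, which may differ from the GENCODE exon lengths used for the other sets. The level of Cavin1 per exon length was 1.02 ± 0.158 times that of Cav1 in the ieWAT controls and 0.966 ± 0.0611 times in isWAT. It was 0.564 ± 0.0214 times in sWAT, 0.425 ± 0.0552 in BAT and 0.514 ± 0.0625 in eWAT (SD, n = 3 each). The lowest control ratio in the inducible sets was 0.835, above the highest in the other 3 sets, 0.581. The subcutaneous sets isWAT and sWAT, from different knockout experiments, therefore did not overlap, nor did the epididymal sets ieWAT and eWAT. Cavin3 was 0.386 to 0.424 times Cavin1 on average in the controls of the 4 white fat sets, and 0.189, 0.114 and 0.284 times in the 3 BAT controls. All 3 BAT values were below the lowest white fat control value, 0.349. Cavin2, a cavin first described in platelets, went the other way, with a ratio to Cavin1 of 0.295 ± 0.0322 in ieWAT and 0.624 ± 0.106 in BAT.

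**Figure D1:**
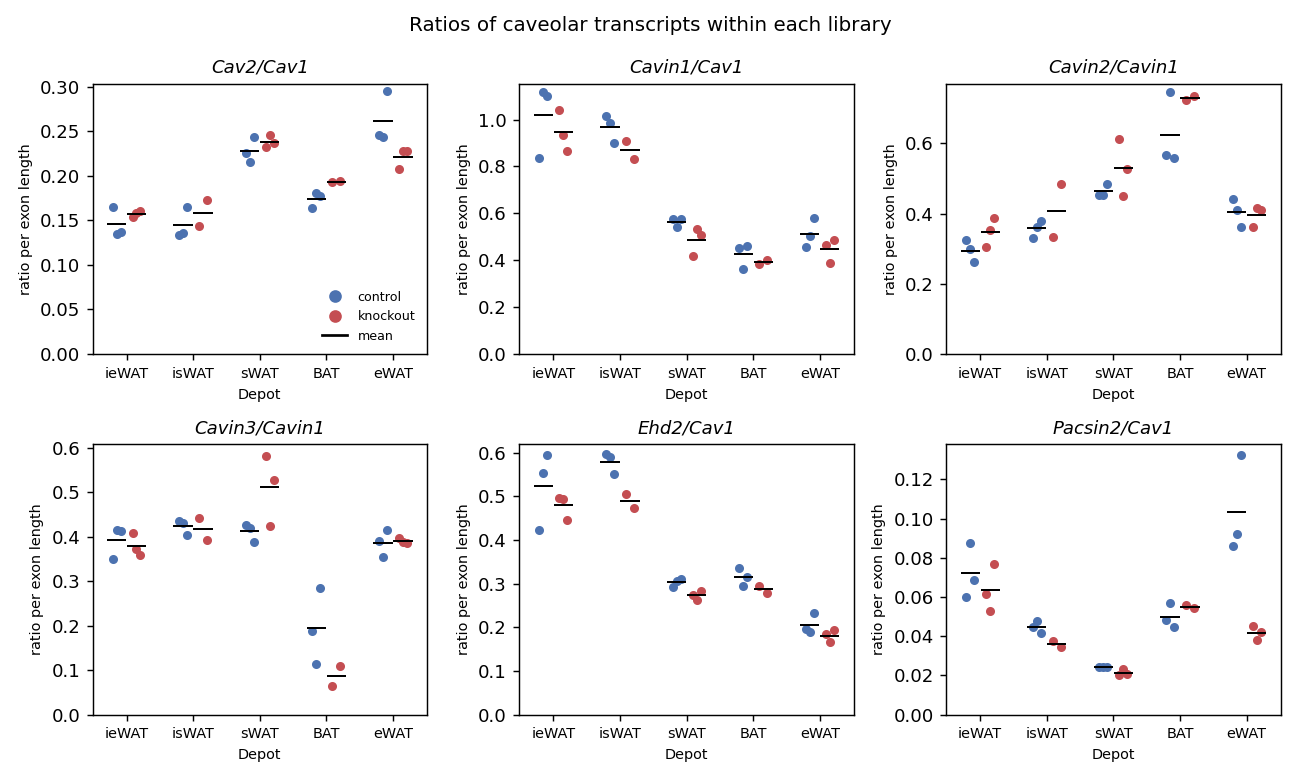
Ratios of caveolar transcripts, each divided by exon length, within each library (points) by depot, with group means (bars); control blue, knockout red, n = 3 and 3 in ieWAT, sWAT and eWAT, and 3 and 2 in isWAT and BAT. Cavin1/Cav1 control means are 1.02 and 0.966 in the inducible sets and 0.425 to 0.564 in the others, and Pacsin2/Cav1 separates the eWAT groups.

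In eWAT, 6 of the 8 genes tested rose in the libraries labelled knockout and none fell. Both caveolins, all 3 cavins and Ehd2 were 1.91- to 2.23-fold higher, whereas Pacsin2 did not pass the test and Pacsin3 missed the threshold. Of all 13736 genes tested in eWAT, 14.9% were called in either direction, 10.2% higher and 4.7% lower, by limma with Benjamini-Hochberg adjustment over all genes at 0.05. The median log2 change was 0.96 over the 8 genes and -0.02 over all genes tested.

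Cav1 stood at 522, 537 and 340.4 FPKM in the control libraries and at 967, 1130 and 1026 FPKM in the knockout libraries. The groups did not overlap, and control replicate 3 was the lowest of the 6. Its log2 change was 1.18 ± 0.19 (SE; limma adjusted p = 0.0149). Cav2 stood at 128, 131 and 101 FPKM against 201, 258 and 234 FPKM. The groups were again apart, with a log2 change of 0.94 ± 0.14 (limma adjusted p = 0.0133).

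The cavins showed the same separation. Cavin1 stood at 239, 269 and 198 FPKM in controls and at 449, 439 and 497 FPKM in the knockout libraries. Its log2 change was 0.98 ± 0.13 (limma adjusted p = 0.0122). Every knockout library exceeded every control library. Cavin2 stood at 106, 110.4 and 71.3 FPKM against 162, 183 and 203 FPKM, a log2 change of 0.94 ± 0.18 (limma adjusted p = 0.0225). Cavin3 stood at 93.3, 95.2 and 82.2 FPKM against 178, 171 and 192 FPKM, a log2 change of 0.99 ± 0.10 (limma adjusted p = 0.0122). Control replicate 3 was the lowest library for each cavin.

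Among the neck and membrane-bending proteins the response was divided. Ehd2 stood at 102, 102 and 78.9 FPKM in controls and at 178, 187 and 198 FPKM in the knockout libraries, without overlap. Its log2 change was 0.99 ± 0.12 (limma adjusted p = 0.0122). Pacsin2 stood at 45.0, 49.4 and 45.0 FPKM against 43.7, 42.9 and 43.1 FPKM. All its knockout values lay below the controls, by a log2 difference of -0.10 with a 95% interval of -0.27 to 0.07 (limma adjusted p = 0.365). Pacsin3 stood at 5.56, 3.66 and 5.39 FPKM against 6.62, 9.55 and 6.58 FPKM. Its groups did not overlap, with a log2 difference of 0.55 ± 0.19 (limma adjusted p = 0.0936). In all, 7 genes were higher and 1 lower without overlap, beside 21.6% higher and 19.6% lower among all genes tested. The ratio of Pacsin2 to Cav1 per exon length was 0.104 ± 0.0250 in controls and 0.0417 ± 0.00363 in the knockout libraries, with no overlap (exact two-sided permutation p = 0.1, the smallest that 3 against 3 libraries allow).

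**Figure D2:**
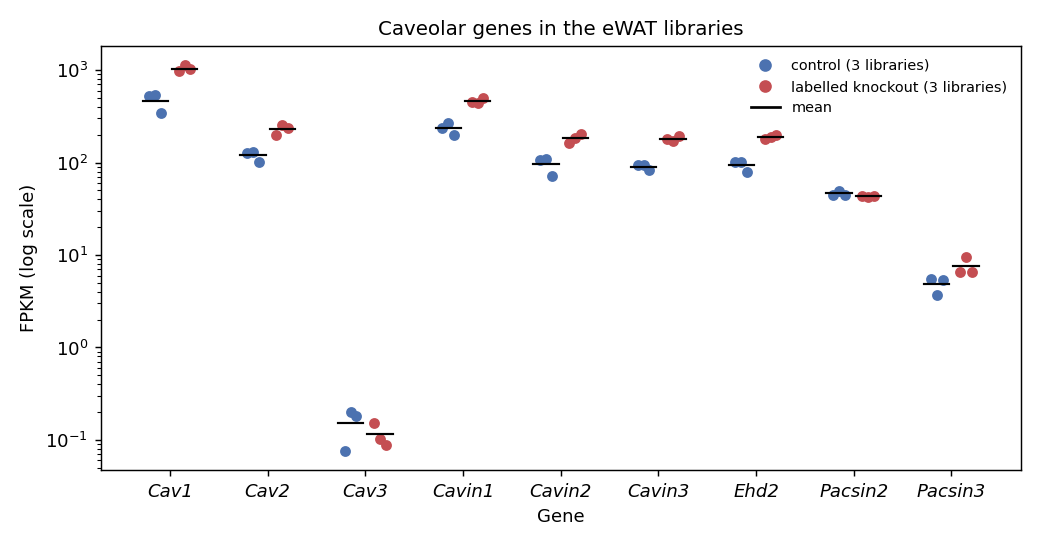
FPKM of the 9 caveolar genes in the 6 eWAT libraries on a log axis; points are libraries, bars are group means of 3, control blue and labelled knockout red. For Cav1, Cav2, Cavin1 to Cavin3 and Ehd2 all red points lie above all blue points, for Pacsin2 they lie just below, and Cav3 stays under 0.2 FPKM.

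These calls were not stable to the choice of libraries or table. Without knockout replicate 3, none of the 6 genes was called (limma adjusted p = 0.0692 to 0.0995), with log2 changes of 0.86 to 1.19, and 12 genes in all were called. A second deposited table of the same libraries, in TPM (transcript shares scaled to a fixed total), gave no call among them and log2 changes of 0.75 for Cav1 to 3.44 for Cavin1. Pairs of its columns had correlations across genes of 0.52 to 0.91, where pairs of FPKM columns had 0.94 to 0.98. Cavin2 was also lost without control replicate 2 (adjusted p = 0.0512) and without knockout replicate 2 (adjusted p = 0.0649) in the limma fit, and with no filter on low values (limma adjusted p = 0.0664).

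Cell-type transcripts moved with the caveolar genes in eWAT. In bulk tissue, fewer cells of a type and less RNA per cell cannot be told apart. Of 10 adipocyte markers, 9 rose, and the list averaged 8.79, 8.57 and 8.17 in the controls and 9.71, 9.81 and 9.88 in the knockout libraries on the log2(FPKM + 1) scale. The summed level of the list was 9363 to 11509.8 FPKM in controls and 20217 to 24871 FPKM in knockouts. Adipoq, which encodes the adipocyte hormone adiponectin, rose from 571 ± 143 to 1431 ± 122 FPKM, and Lep, which encodes leptin, from 412 ± 99.1 to 1314 ± 236 FPKM (SD, n = 3 each; limma adjusted p = 0.0128 and 0.0122). Of 12 endothelial markers, 8 rose, with a summed level of 306 to 374 FPKM in controls and 515 to 669.9 FPKM in knockouts. Of 10 macrophage markers, 5 fell, with a summed level of 4998 to 5868 FPKM in controls and 3253 to 3784 FPKM in knockouts. No marker of these 3 lists was at 0 in all libraries. Of all genes tested in eWAT, 10.2% were called higher and 4.7% lower.

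Set against these lists within each library, the 6 genes lay between them. Relative to the mean of the adipocyte list, the log2 difference of the 6 genes between the groups ranged from -0.11 (Cav1) to -0.35 (Cav2 and Cavin2). Cav1 and Cavin3 overlapped between the groups on this scale, and the other 4 were lower without overlap. Relative to the mean of the endothelial list, the difference was 0.28 to 0.52, and the groups of Cav1, Cav2 and Ehd2 did not overlap. Pacsin2 was lower against both lists, by a log2 difference of -1.39 against the adipocyte list and -0.77 against the endothelial list. The part of these cell types in the rise was not tested. The same 6 genes also differed from these lists in the subcutaneous sets. Relative to the endothelial list, all but Cavin1 were higher without overlap in sWAT, by 0.25 (Ehd2) to 0.47 (Cavin3). In isWAT, Cav1, Cavin1, Cavin3 and Ehd2 were higher without overlap, by 0.09 to 0.34. Relative to the adipocyte list, Cavin1 (-0.24) and Ehd2 (-0.16) were lower without overlap in sWAT. In isWAT, Ehd2 was lower (-0.15) and Cav1 higher (0.1). In ieWAT all 6 overlapped on both scales.

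**Figure D3:**
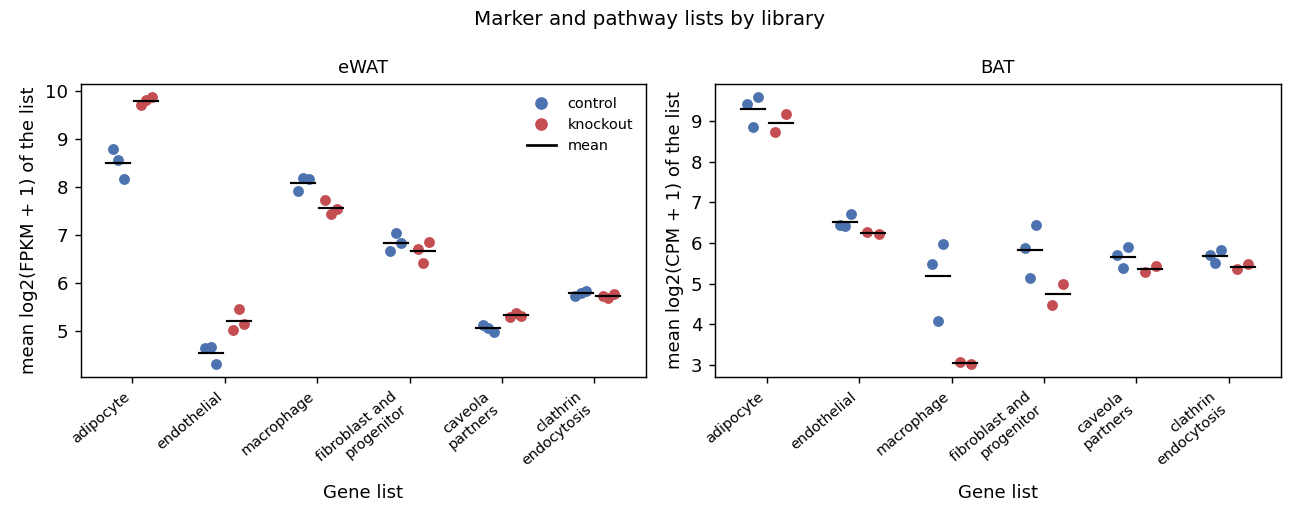
Mean log2(value + 1) of 6 gene lists in each eWAT library (left, FPKM) and BAT library (right, CPM); points are libraries, bars group means, control blue and knockout red. In eWAT the adipocyte list is higher (8.51 to 9.80) and the macrophage list lower (8.10 to 7.58) in the knockout libraries; in BAT the macrophage list is lower (5.17 to 3.04).

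Genes that work with caveolae gave a mixed picture in eWAT. Of 18 partners, 16 were tested, 5 rose and 1 fell, beside 10.2% higher and 4.7% lower among all genes tested. The median log2 change of the partners was 0.23. The risers included Slc2a4, the insulin-responsive glucose transporter (12.0 ± 2.83 to 30.2 ± 3.78 FPKM; log2 change 1.28, limma adjusted p = 0.0122). Lipe, which encodes hormone-sensitive lipase, rose from 190.0 ± 45.5 to 453 ± 26.1 FPKM (log2 change 1.28, limma adjusted p = 0.0122). Aoc3, an amine oxidase of the adipocyte surface, rose from 114 ± 21.3 to 241 ± 9.26 FPKM, and Nos3, the endothelial nitric oxide synthase that binds caveolin 1, from 6.56 ± 2.20 to 16.1 ± 0.713 FPKM (limma adjusted p = 0.0122 and 0.0157). Ehd1, a relative of Ehd2 in endocytic recycling, rose from 59.0 ± 3.76 to 81.0 ± 7.16 FPKM (limma adjusted p = 0.0289). Fyn, a Src family kinase, fell from 31.1 ± 0.571 to 22.6 ± 1.33 FPKM (limma adjusted p = 0.0155). Cd36, the fatty acid transporter found in caveolae, stood at 2814 ± 490.2 against 2501 ± 174 FPKM (limma adjusted p = 0.518). Of 15 clathrin pathway genes tested, none rose and 1 fell, beside the same shares of all genes, with a median log2 change of -0.12. That gene was Fcho2, an F-BAR protein of early clathrin pits (21.1 ± 0.752 to 16.3 ± 0.545 FPKM; limma adjusted p = 0.0241). Slc2a4, Lipe and Nos3 are also transcripts of adipocytes or endothelial cells, whose lists moved in these libraries as given above.

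In BAT no caveolar gene was called by limma, edgeR or DESeq2, although 7 of the 8 had negative log2 differences. At an unadjusted p below 0.05, limma gave 3 lower genes (Cav1, Ehd2 and Pacsin2) and none higher, beside 16.8% lower and 2.32% higher among all genes tested. After adjustment, 0.00755% of all 13253 genes were called. The median log2 difference was -0.38 over the 8 genes and -0.18 over all genes tested. With TMM scaling these medians were -0.17 and 0.0, so the scaling moved both by a similar amount. In BAT, 6 of the 8 genes were lower without overlap, beside 38.1% of all genes tested. None of the 8 was higher without overlap, beside 6.37% of genes.

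Cav1 stood at 1043, 871 and 1248 CPM in the BAT controls and at 749 and 786 CPM in the knockout libraries. Its log2 difference was -0.44 ± 0.17 (limma adjusted p = 0.245), and control replicate 2 was the nearest control to the knockouts. Ehd2 stood at 521, 380.4 and 583 CPM against 329 and 326 CPM, a log2 difference of -0.57 ± 0.19 (limma adjusted p = 0.237). Cavin1 stood at 492, 328 and 599 CPM against 299.7 and 329 CPM. Control replicate 2 lay within the range of the knockouts, and the log2 difference was -0.55 ± 0.26 (limma adjusted p = 0.293). Without control replicate 2, Cav1 (-0.57, adjusted p = 0.0245), Cavin1 (-0.79, adjusted p = 0.0076) and Ehd2 (-0.75, adjusted p = 0.00544) were called lower by limma. Of all 13100 genes tested without that library, 2201 were called, 142 of them higher and 2059 lower.

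Cavin3 was the most variable of the 8 tested genes in BAT. It stood at 43.1, 17.4 and 78.9 CPM in controls and at 8.98 and 16.6 CPM in knockouts. The groups were apart by a narrow margin, since control replicate 2 lay close to knockout replicate 2. Its log2 difference was -1.60 with a 95% interval of -3.61 to 0.41 (limma adjusted p = 0.306). Its ratio to Cavin1 was lower in the knockouts without overlap, at 0.0647 and 0.109 (exact permutation p = 0.2, the smallest that 3 against 2 libraries allow). Cav2 (-0.29), Cavin2 (-0.31) and Pacsin2 (-0.29) had smaller log2 differences, and all 3 were lower without overlap. Pacsin3 stood at 7.58, 9.15 and 6.77 CPM against 7.45 and 16.9 CPM, so that 1 knockout library, the one with the most skeletal muscle transcripts, set its mean.

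Other cell types differed between the BAT groups in the same libraries. The macrophage list summed to 215 to 853 CPM in controls and 96.1 to 100.4 CPM in knockouts, with 9 of its 10 markers lower at an unadjusted limma p below 0.05 and none after adjustment. The fibroblast and progenitor list summed to 693 to 2116 CPM against 416 to 579.5 CPM, with 4 of 10 markers lower at an unadjusted p below 0.05 in limma. The endothelial list was lower without overlap, at 1234 to 1502 against 1082 to 1119 CPM. Among macrophage markers, Adgre1 averaged 59.6 ± 37.9 CPM in controls and 6.22 ± 0.00395 CPM in knockouts (n = 3 and 2; limma adjusted p = 0.241). Control replicate 2, the lowest control for Cav1, Cavin1, Cavin3 and Ehd2, was also the lowest control for both lists. Relative to the endothelial list, the log2 differences of Cav2, Cavin2 and Pacsin2 were -0.01, -0.03 and -0.01. Those of Cav1, Cavin1 and Ehd2 were -0.17, -0.27 and -0.30, and that of Cavin3 was -1.32. Of these genes only Ehd2 was apart between the groups on this scale. Relative to the adipocyte list, the log2 differences were -0.11 for Cav1, -0.22 for Cavin1, -0.24 for Ehd2 and -1.27 for Cavin3. Those of Cav2, Cavin2 and Pacsin2 were 0.04, 0.02 and 0.04. Only Cavin1 and Cavin3 were apart on the adipocyte scale. Smooth muscle and pericyte markers were lower without overlap as well, at 689.9 to 825 against 636 to 676 CPM, and so were lymphocyte markers, at 78.7 to 266 against 57.2 to 71.1 CPM. The part of these cell types in the differences was not tested. None of 17 caveola partners and 15 clathrin pathway genes tested in BAT was called by limma. The median log2 difference of the partners was -0.39. At an unadjusted p below 0.05, 5 partners were lower and 1 was higher, Slc2a4 (221 ± 44.1 against 346 ± 26.5 CPM). Clathrin pathway genes gave 8 lower and none higher. These counts stand in a table where 16.8% of all genes were lower and 2.32% higher at the same limit.

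**Figure D4:**
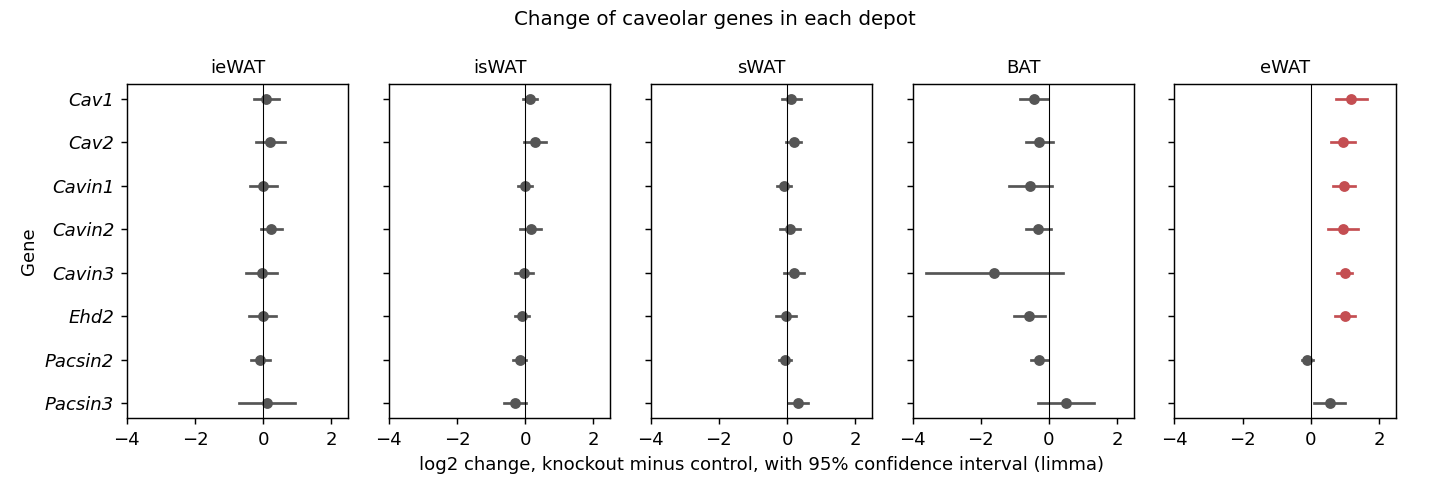
Log2 change (knockout minus control) of the 8 tested caveolar genes with 95% confidence intervals from limma, 1 panel per depot; red marks genes called at an adjusted p of 0.05. Red points appear only in eWAT, between 0.94 and 1.18, and most BAT points lie below 0 with intervals that are widest for Cavin3.

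In the 2 inducible sets and in sWAT none of the 8 caveolar genes was called by limma, edgeR or DESeq2. The share of all genes called by limma was 0% in ieWAT, 0.00701% in isWAT and 0.0217% in sWAT. In limma, ieWAT and isWAT gave no caveolar gene at an unadjusted p below 0.05, and sWAT gave 1, Pacsin3, which was higher. The share of all genes at that limit was 2% higher and 0.617% lower in ieWAT, 3.98% and 9.13% in isWAT, and 1.93% and 7.72% in sWAT. The median log2 difference over the 8 genes was 0.05 in ieWAT, -0.02 in isWAT and 0.11 in sWAT, against 0.02, -0.03 and -0.05 over all genes tested.

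In ieWAT, Cav1 stood at 1464, 1164 and 1255 CPM in controls and at 1356, 1587 and 1211 CPM in knockouts. The groups overlapped, with a log2 difference of 0.09 and a 95% interval of -0.28 to 0.47. Cavin1 gave 1273, 1353 and 1440.0 CPM against 1469, 1546 and 1091 CPM, and the interval of its log2 difference was -0.39 to 0.39. Only Cavin2 was apart, at 353, 343 and 319.98 CPM against 382, 465 and 359.7 CPM (log2 difference 0.24 ± 0.14, limma adjusted p = 1.0). It was 1 of 8 genes higher without overlap, beside 3.43% of all genes tested, and none was lower, beside 1.68%. Knockout replicate 3 had the lowest knockout values of Cav1, Cav2, Cavin1, Cavin2, Cavin3, Ehd2 and Pacsin3, and also the lowest adipocyte list of the 6 libraries (10.03 against 10.22 to 10.75, mean log2). It had the lowest endothelial list as well (6.48 against 6.76 to 7.13). The macrophage (8.85), fibroblast and progenitor (8.1) and mesothelial (3.17) lists were highest in the same library. Lymphocyte markers, of which 9 of 10 were higher at an unadjusted limma p below 0.05, summed to 1185 to 2176 CPM in controls and 3202 to 5309 CPM in knockouts, and their part in these values was not tested.

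In isWAT, Cav1 stood at 1993, 1926 and 1993 CPM in controls and at 2135 and 2225 CPM in knockouts. Both knockout libraries were above the controls, by a log2 difference of 0.15 ± 0.08 (limma adjusted p = 0.478). Ehd2 went the other way, at 1768, 1685 and 1629 CPM against 1599.99 and 1567 CPM, a log2 difference of -0.10 ± 0.08 (limma adjusted p = 0.639). The ratio of Ehd2 to Cav1 was 0.597, 0.589 and 0.550 in controls and 0.504 and 0.474 in knockouts, without overlap. Pacsin2 (127, 131 and 119 against 115 and 109 CPM) and Pacsin3 (22.6, 28.1 and 20.3 against 20.3 and 17.7 CPM) were also lower without overlap. For Pacsin3 the nearest control and knockout libraries were almost level. That made 1 gene higher and 3 lower without overlap, beside 12.2% and 19.4% of all genes tested. Endothelial markers summed to 3017 to 3474 CPM in controls and 2870.3 to 2892 CPM in knockouts, with 3 of 12 lower at an unadjusted limma p below 0.05. The smooth muscle and pericyte list averaged 6.85 in controls and 6.60 in knockouts (mean log2), without overlap, with 4 of 10 markers lower at that limit. Its summed levels overlapped, at 1850.2 to 2189.5 against 1719 to 1879 CPM. The adipocyte list was higher without overlap, at 38343 to 39305 against 41437 to 41548 CPM, with 2 of 10 markers higher and 1 lower at that limit. The part of these cell types was not tested.

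In sWAT, Cav2 stood at 627, 637 and 667 CPM in controls and at 811, 670.1 and 734 CPM in knockouts, with a log2 difference of 0.19 ± 0.09 (limma adjusted p = 0.543). The groups were apart by the narrow gap between control replicate 3 and knockout replicate 2. Cavin1 stood at 1719, 1715 and 1703 CPM against 1575, 1554 and 1684 CPM. Its knockout values were all lower, and its log2 difference was -0.09 ± 0.09 (limma adjusted p = 0.736). These were 1 gene higher and 1 lower of 8 without overlap, beside 3.8% and 12.3% of all genes tested. Pacsin3 gave 14.8, 12.5 and 12.5 CPM against 18.2, 14.2 and 18.5 CPM (log2 difference 0.33 ± 0.13, limma adjusted p = 0.485), and its groups overlapped. The ratio of Cavin1 to Cav1 was lower without overlap, at 0.576, 0.540 and 0.577 in controls and 0.420, 0.531 and 0.505 in knockouts (exact permutation p = 0.1). The ratio of Ehd2 to Cav1 was likewise lower without overlap, as in isWAT, at 0.291, 0.307 and 0.310 against 0.275, 0.263 and 0.283 (exact permutation p = 0.1). In ieWAT, BAT and eWAT the groups overlapped for that ratio. The ratio of Pacsin2 to Cav1 was lower without overlap in isWAT (0.0446 ± 0.00290 against 0.0360 ± 0.00232, exact permutation p = 0.2). The same held in sWAT (0.0243 ± 0.000208 against 0.0214 ± 0.00161, exact permutation p = 0.1), as in eWAT. In ieWAT and BAT the groups overlapped for Pacsin2 to Cav1, and the BAT mean was higher in knockouts (0.0498 against 0.0551, control first). Of the caveola partners and clathrin pathway genes, none was called by limma in ieWAT, isWAT or sWAT. At an unadjusted limma p below 0.05, 4 of 16 partners in isWAT were lower and none higher. The partner list was lower there without overlap (7.0 against 6.86, mean log2), though its summed level overlapped. In isWAT 1 clathrin gene was higher. In sWAT, 3 of 16 partners and 2 of 15 clathrin pathway genes were lower at that limit and none higher. The share of all genes lower at that limit was 9.13% in isWAT and 7.72% in sWAT. The clathrin list was lower without overlap in sWAT (6.57 against 6.49). The lower sWAT partners included Plvap, a diaphragm protein of endothelial caveolae (92.0 ± 6.78 against 62.3 ± 12.4 CPM, limma adjusted p = 0.447). Endothelial markers in sWAT summed to 2064 to 2106 CPM in controls and 1539 to 1962 CPM in knockouts, with 6 of 12 lower at an unadjusted p below 0.05, and their part was not tested.

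Cav3, the caveolin of muscle fibres, was counted with 0 to 50 reads per library. In the ieWAT controls it had 6, 10 and 8 reads and in the knockouts 5, 0 and 6. In isWAT it had 7, 1 and 0 reads in controls and 2 and 3 in knockouts. In sWAT it had 0, 0 and 1 reads in controls and 2, 13 and 7 in knockouts. The sWAT groups did not overlap, but the high counts were in the 2 libraries with skeletal muscle transcripts. In BAT it had 2, 13 and 1 reads in controls and 1 and 50 in knockouts. A count of 0 allows up to 3 reads, which was 0.0615 to 0.222 CPM in the libraries without a Cav3 read, for counting error only. In eWAT it was 0.0760, 0.198 and 0.179 FPKM in controls and 0.153, 0.103 and 0.0888 FPKM in knockouts, which overlapped.

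The 4 highest Cav3 levels were found in libraries that carried skeletal muscle markers (Acta1, Ckm, Myh4 and 9 others). Those libraries were BAT knockout replicate 2 (3.34 CPM; muscle list mean 8.90 on the log2(CPM + 1) scale), sWAT knockout replicate 2 (0.907 CPM; 6.86), BAT control replicate 2 (0.815 CPM; 6.68) and sWAT knockout replicate 3 (0.440 CPM; 7.37). BAT control replicate 1, with a muscle mean of 5.17, had 2 Cav3 reads. The other 17 libraries had muscle means of 0.63 to 1.85 and at most 0.271 CPM of Cav3. Cavin4, the muscle cavin, was highest in the same 4 libraries, with 126 reads (8.43 CPM) in BAT knockout replicate 2. Both genotypes included such libraries in BAT, while in sWAT both were knockouts, so the Cav3 values of sWAT cannot be told apart from muscle in those libraries. The genes whose levels were most like that of Cav3, as deviations from depot and genotype means over the 22 libraries, were Lmod3, Lrrc38, Neu2, Capn3 and Asb5 (Pearson r 0.97 to 0.95, Spearman rho 0.59 to 0.68). Without the 2 libraries farthest from the median of Cav3, r was 0.85 to 0.90.

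**Figure D5:**
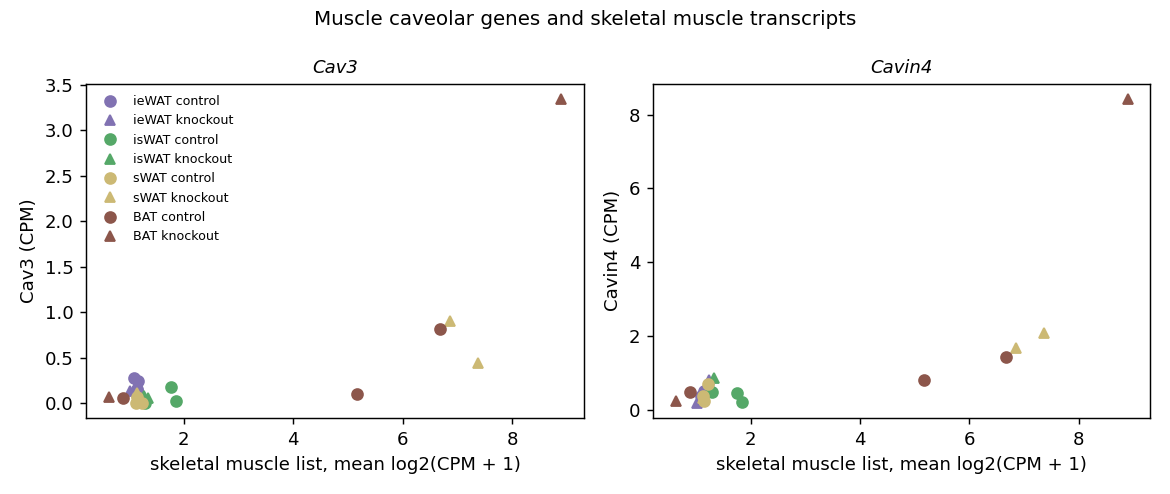
Cav3 (left) and Cavin4 (right) in CPM against the mean log2(CPM + 1) of 12 skeletal muscle markers in the 22 libraries of ieWAT, isWAT, sWAT and BAT; circles are controls and triangles knockouts, coloured by depot. BAT knockout replicate 2 is highest in both panels (3.34 and 8.43 CPM at a muscle mean of 8.90), and the libraries with a muscle mean below 2 have at most 0.271 CPM of Cav3.

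Among replicate libraries, the caveolar genes varied together to unequal degrees. Correlations were taken over the 22 libraries in CPM as deviations of log2(CPM + 1) from depot and genotype means. They are a description, since the libraries share their scaling, and a difference in cell makeup between replicates moves many genes at once. Cav1 and Cav2 had r = 0.84 and rho = 0.82, and r = 0.80 both without the 5 BAT libraries and without the 2 farthest libraries. Cav1 with Cavin2 had r = 0.78 and rho = 0.71, and 0.69 without the BAT libraries. Cavin1 and Cavin3 had r = 0.93 and rho = 0.87, and 0.84 without the BAT libraries. Cavin1 with Ehd2 had r = 0.86 and rho = 0.78, and 0.78 without the BAT libraries. Cav1 with Ehd2 had r = 0.79 and rho = 0.56, and 0.67 without the BAT libraries. Cavin2 with Ehd2 had r = 0.65 and rho = 0.39, and 0.55 without the BAT libraries. Cavin3 had r = 0.67 with Cav1 (0.35 without the BAT libraries) and r = 0.56 with Cavin2 (0.26 without them). Cav2 with Cavin1 had r = 0.36 and rho = 0.12, and 0.02 without the BAT libraries. Cav1 with Cavin1 had r = 0.68 and rho = 0.41, and 0.39 without the 2 farthest libraries, so that value rested on them. Pacsin2 did not follow Cav1 (r = 0.08) or Cavin1 (r = 0.08). Pacsin3 had r = 0.33 with Cavin1 over 22 libraries, 0.82 without the 2 farthest libraries and 0.89 over the 17 without BAT.

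Genes most like Cav1 over the same 22 libraries were Msrb3, Abcd2, Ywhab, Mycbp2 and Wwtr1, with r of 0.90 to 0.93, out of 11589 genes compared. Without the 2 farthest libraries r was 0.85 to 0.97. Genes most like Cavin1 were Sparc, Fads3, Mfng, Rxra and Kctd17, with r of 0.94 to 0.96, and 0.89 to 0.90 without the 2 farthest libraries. No gene was in both lists.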

How the data were processed

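Total RNA of mouse adipose tissue was sequenced in 28 libraries. Per the submitters' processing notes, the tools were DESeq2 1.38.3, FastQC, MultiQC and Salmon, with no role stated. For the aligner, build and annotation the entry is: not given in the sources used here. The 4 tables of ieWAT, isWAT, sWAT and BAT hold values that the authors deposited as CPM, although they are named otherwise: all columns share 1 total and 99.99% to 100% of values are whole reads to within 0.01. The eWAT table was deposited in FPKM by the authors, and a second eWAT table, deposited by the authors, holds TPM. A further table of the eWAT libraries was not used here. Gene symbols came from GENCODE M21 for 92.0% to 96.0% of identifiers, and the rest held at most 1.45% of a library. Rows without a symbol stayed in the fits.

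A gene was kept when it reached a value of 1 in a number of libraries equal to the size of the smaller group. Values were analysed as log2(value + 1), which understates the change of low genes, with limma 3.58.1 (trended, robust, two-sided) in R 4.3.3 for each depot alone, without covariates. P-values were adjusted by Benjamini and Hochberg over all genes tested at 0.05. Recovered whole reads were tested with edgeR 4.0.16 (quasi-likelihood) and DESeq2 1.42.0 as alternatives. Other alternatives were a block for the replicate number, each library left out, TMM scaling, no filter, a pseudocount of 0.1 and the TPM table. Of these steps, only the limma fit was tested on simulated data.

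The 9 genes and all gene lists were chosen with earlier results of these data known. Named genes were the 9 genes, Fgf13, partner and clathrin genes past the threshold or with the smallest p, the 5 genes most like Cav1, Cavin1 and Cav3, and up to 2 markers of a moving cell type list.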

Additional observations from a re-analysis of the deposited data

Results flagged for a closer look

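Opposite directions in different depots drew attention for 7 caveolar genes. In each case every library of 1 depot's knockout group lay above its controls and every library of the other's lay below, and the difference between depots was not tested. The log2 change of Cav1 was 0.15 in isWAT and 1.18 in eWAT against -0.44 in BAT. For Cav2 it was 0.19 in sWAT and 0.94 in eWAT against -0.29 in BAT. For Cavin1 it was 0.98 in eWAT against -0.09 in sWAT. For Cavin2 it was 0.24 in ieWAT and 0.94 in eWAT against -0.31 in BAT. For Cavin3 it was 0.99 in eWAT against -1.60 in BAT. For Ehd2 it was 0.99 in eWAT against -0.10 in isWAT and -0.57 in BAT. For Pacsin3 it was 0.55 in eWAT against -0.29 in isWAT. The mice, the unit and the scaling differ between these sets. Among all genes tested, the share higher without overlap was 21.6% in eWAT, 12.2% in isWAT, 3.8% in sWAT and 3.43% in ieWAT. The share lower without overlap was 38.1% in BAT, 19.4% in isWAT and 12.3% in sWAT. The share of genes apart in opposite directions in 2 depots was not computed. With TMM scaling the BAT changes were -0.23 for Cav1, -0.08 for Cav2, -0.10 for Cavin2, -1.40 for Cavin3 and -0.36 for Ehd2.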

How the results depend on the processing

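The 6 caveolar genes that rose in eWAT kept a positive log2 change under all 11 alternatives. In the TPM table only Cavin1 of the 6 was higher without overlap. Cav1 there stood at 722, 2425 and 3106 TPM in controls and at 17101, 1589 and 956 TPM in knockouts. All 6 calls were lost with the replicate number as a block (limma adjusted p = 0.0627 to 0.0781), where 0 genes in all were called. They were also lost without knockout replicate 3, and in the TPM table, where 1 gene in all was called. Without a filter on low values 5 were called, and Cavin2 was lost (limma adjusted p = 0.0664). With each library left out in turn, 0 to 6 were called. Deviations of same-numbered libraries had r from -0.32 to 0.06 in eWAT, from -0.16 to 0.39 in BAT and from -0.24 to 0.0 in sWAT. It ran from -0.56 to -0.33 in isWAT and from -0.39 to 0.14 in ieWAT. Deviations from the mean of 2 or 3 libraries are partly fixed by the centring, and those of 2 libraries are exact opposites. These values therefore cannot decide whether the numbers pair the samples. In BAT, 0 to 3 of the 8 were called with 1 library left out.

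The number of all genes called moved more. Against 0 in ieWAT, it was 1 with the replicate block, 32 with DESeq2 and 0 to 1 with a library left out. Against 1 in isWAT, it was 3 without a filter, 7 with the block, 259 with DESeq2 and 0 to 12 with a library left out. Against 3 in sWAT, it was 5 with a pseudocount of 0.1, 5 without a filter, 1 with the block, 52 with DESeq2 and 1 to 120 with a library left out. Against 1 in BAT, it was 0 with a pseudocount of 0.1, 7 without a filter, 0 with the block, 0 with edgeR, 791 with DESeq2 and 0 to 2201 with a library left out. Against 2041 in eWAT, it was 544 without a filter, 0 with the block, 1 in the TPM table and 12 to 1819 with a library left out. The cause was not tested.

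Small differences changed sign. Cavin1 in isWAT was 0.02 with TMM, edgeR and DESeq2. Ehd2 in sWAT was 0.03 with TMM and 0.04 with edgeR and DESeq2. Pacsin2 in eWAT was 0.37 in the TPM table. Leaving out each library in turn gave -0.01 to 0.19 for Cav1, -0.10 to 0.15 for Cavin1, -0.17 to 0.15 for Cavin3, -0.14 to 0.12 for Ehd2 and -0.16 to 0.47 for Pacsin3 in ieWAT. It gave -0.05 to 0.04 for Cavin1, -0.07 to 0.40 for Cavin2 and -0.15 to 0.09 for Cavin3 in isWAT. It gave -0.01 to 0.22 for Cavin2 and -0.11 to 0.10 for Ehd2 in sWAT, and -0.06 to 1.03 for Pacsin3 in BAT. Genes with the lowest control mean in BAT numbered 8 in CPM and 3 with TMM. The alternative that left BAT out of the correlations was chosen after seeing the data. Cav3 was left out of the main tests by the minimum value of 1 CPM or FPKM, and its 0 to 50 reads in the 22 libraries with CPM values limit its precision.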
